A study of Mus musculus with 21 samples.

Results

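Gene expression was compared between Stag2 knockout (KO) and wild-type (WT) granulocyte-monocyte progenitors (GMP) of the mouse marrow. The comparison rests on the 7 of 21 libraries whose names give the population as GMP, 4 labelled Stag2KO and 3 labelled Stag2WT. The other 14 libraries are of erythroid progenitors (CFU-E, 4 KO and 3 WT) and of a stem and multipotent progenitor fraction (LSK, 3 KO and 4 WT). Marrow was depleted of lineage-positive cells with magnetic beads before the sort, per the labels' protocols, and GMP and CFU-E libraries are 3′ end libraries made after SMART-Seq2 amplification, whereas LSK libraries cover full transcripts. The genotype is given only as Stag2KO or Stag2WT. The Cre driver, the deleted exons, the age, sex and strain of the animals, any treatment and the gate that defined GMP are not stated in the sources used here. Replicates carry numbers, but nothing in the labels says that they came from separate animals, so every p-value measures only how much the libraries at hand vary, which may be technical. Below, values of single genes are CPM, counts relative to the library total after scaling by TMM factors, listed for KO 1, 2, 3 and 4 and then for WT 1, 2 and 3.

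Stag2 is one of the subunits that cohesin, the ring complex that holds sister chromatids and shapes chromatin loops, carries in alternative forms, and Stag1 is the other form in these cells. GMP give rise to neutrophils and monocytes. As neutrophils form they make their granules in an order, primary granules first with myeloperoxidase and serine proteases, then secondary and tertiary granules with lactoferrin and related proteins, and later the chemotactic receptors and kinases of the mature cell.

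The KO libraries were shallower, with 1250683 counts in KO 1 and 2891131 to 3471881 in KO 2 to 4, against 3732769 to 4401993 in WT. Depth and genotype therefore moved together, with no overlap. The 10 most abundant genes held 13.8% to 18.5% of counts in KO and 21.2% to 24.9% in WT. Small nucleolar RNAs took 0.0576% to 0.0807% of counts in KO and 0.0238% to 0.0307% in WT, also with no overlap. KO 4 correlated least with the other KO libraries (mean r 0.931) and had the highest share of Malat1 and Neat1 (0.717%, against at most 0.28% in the other KO libraries and 0.196% in WT). The targeted gene did not separate the groups. For Stag2 the values were 94.4, 98.7, 80.9 and 150.2 CPM in KO and 200.4, 143 and 98.3 CPM in WT (log2 fold change -0.47 ± 0.271 (SE), adjusted p = 0.36), and of 18 alternative settings limma-voom alone called it (adjusted p = 0.0183). KO 4 lay above WT 2 and WT 3, and the libraries are therefore KO and WT by their labels only. In CFU-E, with the same kind of 3′ library, Stag2 was at 73, 41.3, 66.8 and 75.8 CPM in KO and 137, 125 and 159.9 CPM in WT with no overlap (-1.13 ± 0.205 on the log2 scale, adjusted p = 0.0143), and the difference of the KO effect between GMP and CFU-E did not pass (adjusted p = 0.483). Stag1 in GMP was at 126, 99.8, 104 and 131 CPM in KO and 104, 82.2 and 46.9 CPM in WT (log2 fold change 0.57 ± 0.26 (SE), adjusted p = 0.266).

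Of 12 marker genes of GMP, 11 were in the table and all 11 were tested, with 0 called. Mpo, the myeloperoxidase of primary granules, was at 21924, 13353, 14821 and 9339.6 CPM in KO and 15861, 17547 and 26526 CPM in WT. These high levels were found in all 7 libraries and overlapped between the groups. Markers of T, NK and B cells were low: the 4 T and NK cell markers summed to at most 0.74 CPM in KO and 2.64 in WT with Cd3e at 0 in every library, and the 5 B cell markers summed to between 5.88 and 8.69 CPM in the KO and 9.33 and 16.1 CPM in the WT. Those of some myeloid lineages were present at overlapping levels, the 3 eosinophil markers summing to between 1516 and 3298 CPM among KO and between 1028 and 3567 CPM among WT libraries, and the 5 mast cell and basophil markers to between 157 and 306 CPM among KO and between 175 and 194 CPM among WT libraries. The summed markers of mature neutrophils were abundant and differed. Summed over 9 genes, of which 1 was called (Ltf), they reached between 74189.5 and 121436 CPM in the KO and between 155491 and 206114 CPM in the WT, with no overlap. S100a8 and S100a9 dominated this sum. Camp, Lcn2, Retnlg, Mmp8 and Cxcr2 each overlapped between the groups, and Cxcr2 had a log2 fold change of -0.03. In bulk RNA, fewer cells of a type and less RNA per cell cannot be told apart. The part of the difference in summed neutrophil markers in the results below was not tested.

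In GMP, 100 genes fell and 45 rose in the KO out of 9969 tested (edgeR quasi-likelihood test, Benjamini-Hochberg adjusted p under 0.05), which is 1% falling, 0.451% rising and 1.45% in all. Falls had a median log2 fold change of -1.61 and ran from -4.43 to -0.89. Rises had a median of 1.77 and ran from 0.90 to 3.46. In 30 falls and 18 rises the change was at least 4-fold. The median over all tested genes was 0.02 after TMM scaling. All KO libraries lay below all WT libraries in 843 genes (8.46%) and above them in 735 genes (7.37%). Of the 145 called genes, 144 showed such a separation, the exception being Dmxl2. Where a called gene is said below not to overlap, this is therefore a description and no added evidence. Calls were spread over all levels of expression: 1.64% of 1098 genes under a mean of 5 CPM, 1.9% of 3050 genes from 5 to 20 CPM, 1.19% of 4017 genes from 20 to 100 CPM and 1.16% of 1804 genes above. Of the rises, 30 of 45 were in genes under 20 CPM, whereas 54 of 100 falls were in genes above 20 CPM. KO 4 was the highest KO library in 30 of the 45 rises and the lowest in 59 of the 100 falls.

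**Figure D1:**
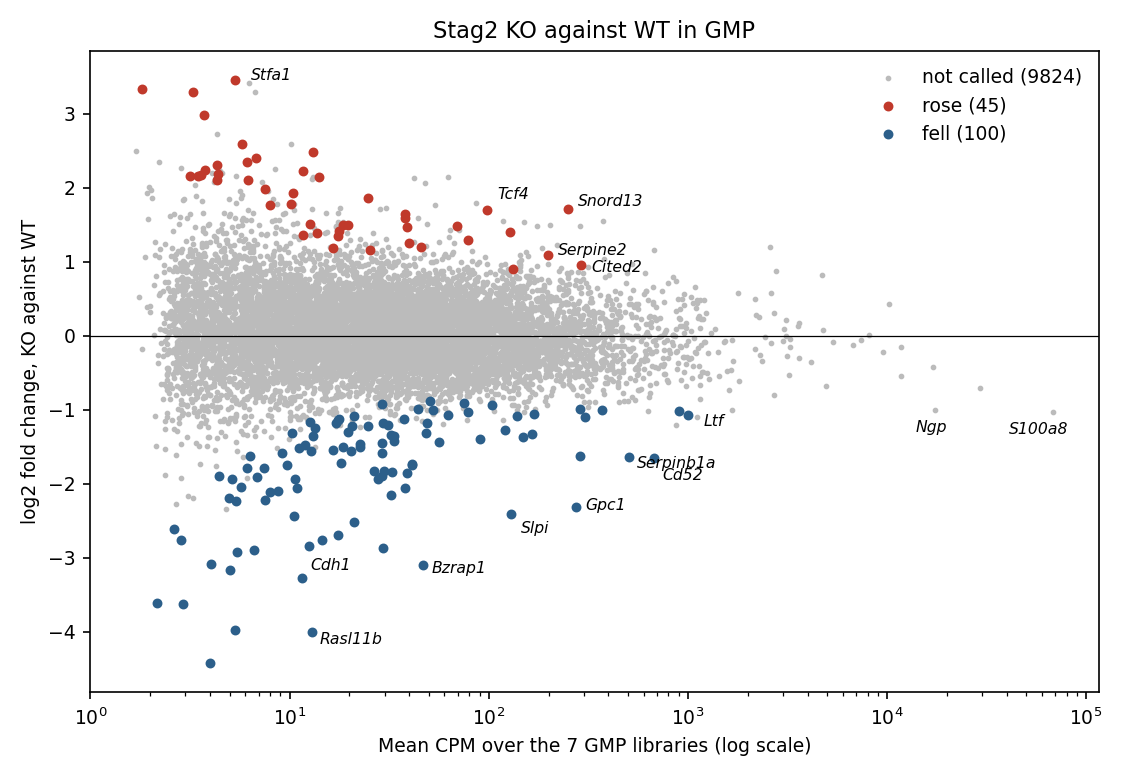
Each point is 1 of the 9969 genes tested in GMP, with its mean CPM over the 7 libraries on a log axis (x) and its log2 fold change of KO against WT (y). The 45 rises (red) lie mostly at low CPM, while the 100 falls (blue) reach abundant genes such as Ltf and Cd52; S100a8 and Ngp, the abundant neutrophil genes labelled among the grey points, did not pass the threshold.

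The split between rises and falls depended on scaling. The 10 most abundant genes took more of the WT counts, and TMM factors were 1.03 to 1.08 in KO and 0.912 to 0.974 in WT. With library totals alone the median of all genes moved to 0.17, and 74 genes rose and 60 fell, so that rises made up 55.2% of calls in place of 31%. All 145 called genes had the same sign in each of 18 alternative settings in which they were tested. They were selected in these same libraries, with log2 fold changes of at least 0.89 in size. Their sign therefore had little room to change, and its being kept is no independent support. Thinning every library to 1250683 counts, the depth of KO 1, left 16 rises and 50 falls, of which 62 were among the 145. Without KO 1, 27 rose and 72 fell. Calls depended most on WT 2 and WT 3: 7 rises and 36 falls were left without WT 2, and 2 rises and 36 falls without WT 3. Omitting WT 1 left 30 rises and 72 falls, and omitting KO 2 left 35 and 68. Leaving out KO 3 gave 18 and 44, while leaving out KO 4 raised the counts to 68 and 143. Of the 145 genes, 31 were called whichever library was left out, 30 that fell and 1 that rose.

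**Figure D2:**
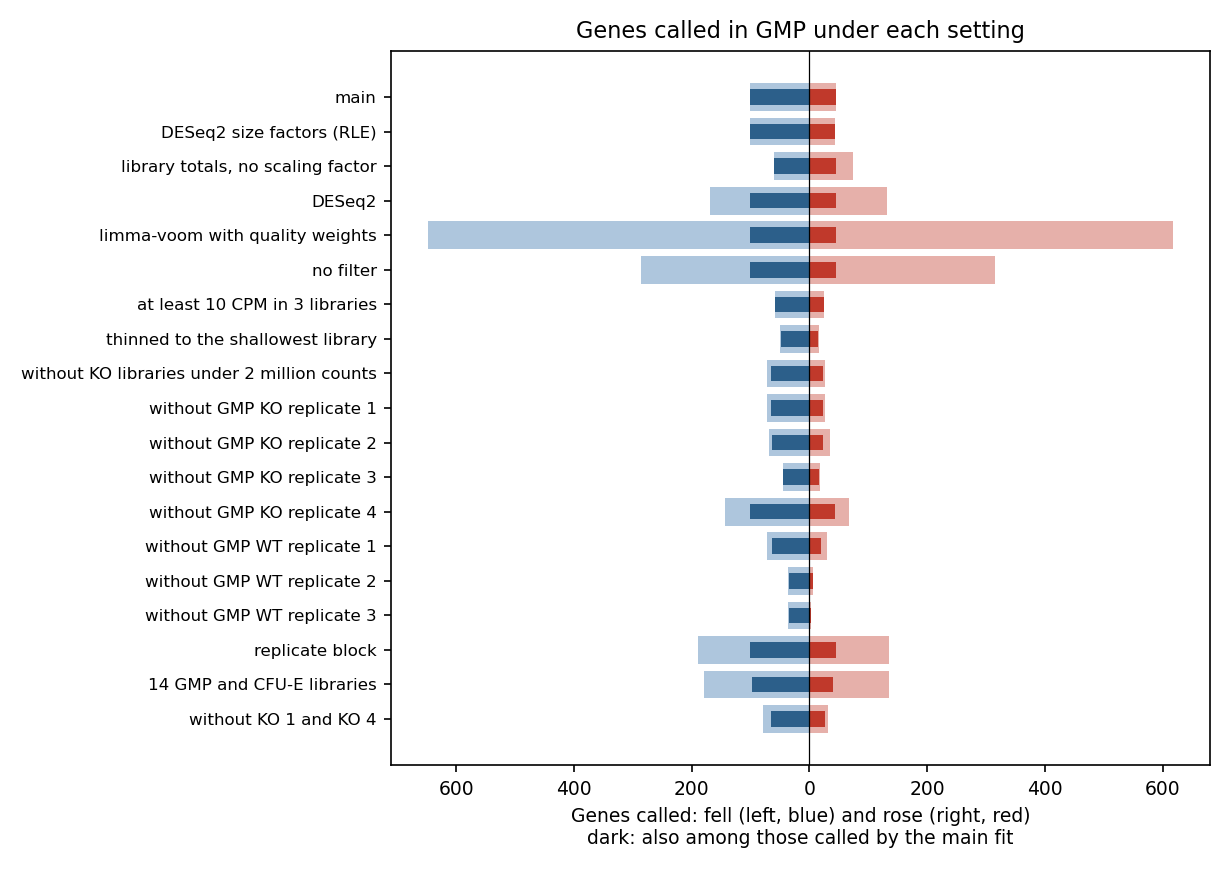
Bars give the number of genes called in GMP under each setting, falls to the left and rises to the right, and the dark inner bars give those among the 145 of the main fit. The shortest bars are those without WT 2 and WT 3 and the longest those of limma-voom (617 rose and 647 fell) and of the test with no filter on low counts (315 and 286).

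Of the 145 genes, 27 were called in all 18 alternatives as well as in the main fit. The single rise among them was Snord13, a small nucleolar RNA. The 26 falls included AA467197, Actn1, Ankrd57, Aplp2, B3gnt8, Bcl2l1, Bzrap1, Cd52, Cdh1, Cdk5r1, Crispld2, Fn1, Glipr2, Gpc1, Gpx3, Mgll, Mogat2, Rasl11b, Rhoj, Rnd1, Serpinb1a, Slpi, St3gal5, Syngr1 and Trem1. Those of the 27 that the naming rule does not select (Ankrd57, Aplp2, B3gnt8, Bcl2l1, Cdk5r1, Glipr2, Mgll, Mogat2, Snord13 and Trem1) were picked with their values known. The smallest adjusted p belonged to Bzrap1, a RIM-binding scaffold protein, at 11.1, 14.6, 10.8 and 7.44 CPM in KO and 93, 91.9 and 99.9 CPM in WT (log2 fold change -3.10 ± 0.251 (SE), adjusted p = 1.43e-05). Every KO library was below 15 CPM and every WT library above 90. Gpc1, the cell surface proteoglycan glypican-1, was at 114, 94.2, 103 and 96.1 CPM in KO and 401, 476 and 633 CPM in WT (log2 fold change -2.31 ± 0.222 (SE), adjusted p = 8.17e-05). The 4 KO libraries were within 20 CPM of each other, and the lowest WT library was more than 3 times the highest KO library. Cd52, a small glycoprotein of leukocyte membranes, was at 364, 434, 341 and 282 CPM in KO and 1024, 1279.8 and 1035 CPM in WT (log2 fold change -1.65 ± 0.22 (SE), adjusted p = 0.00117).

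**Figure D3:**
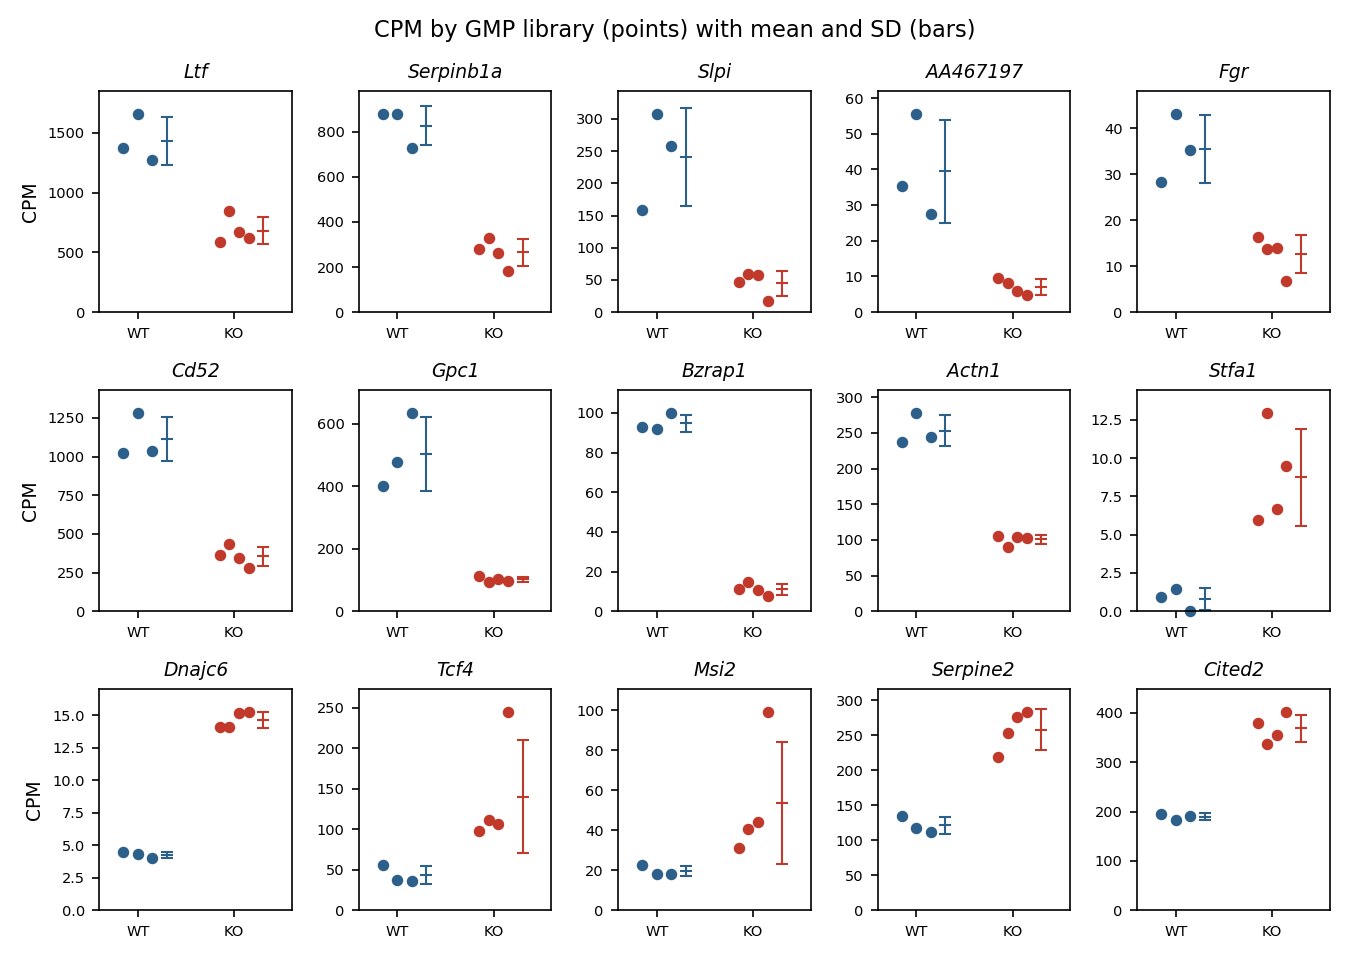
CPM of 15 genes in each GMP library (points, y axis from 0) with the group mean and SD (bars), WT in blue and KO in red. The first 9 genes are falls and the last 6 rises; KO and WT points do not overlap in any panel, and KO 4 is the top KO point for Tcf4 and Msi2.

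Most members of the secondary and tertiary granule list had lower values in the KO. The list is broader than granule proteins and also holds Adpgk, Ifitm6, AA467197, Stfa1 and the calprotectin genes. This and the other lists were chosen with earlier results of these data known. A list's share of calls beside that of all genes is therefore a description and not a test. Of 27 tested members, 5 fell (18.5%, against 1% of all genes), 1 rose and 21 were not called, and 19 were negative, with a median log2 fold change of -0.57 against 0.02 for all genes. Together the list held 7.85% to 12.8% of all counts in KO and 15.3% to 19.7% in WT. Much of this was calprotectin and not granule protein. S100a8 alone held 3.18% to 6.45% in KO and 8.31% to 10.3% in WT. S100a9 held 2.08% to 2.91% in KO and 2.8% to 4.25% in WT. Ltf, lactoferrin, an iron-binding protein of secondary granules, was at 590.1, 846, 668 and 621 CPM in KO and 1373, 1656 and 1269.7 CPM in WT (log2 fold change -1.07 ± 0.218 (SE), adjusted p = 0.0235). All KO libraries were below 850 CPM and all WT libraries above 1250. Slpi, the secretory leukocyte protease inhibitor, was at 46.1, 59.3, 57.3 and 17.6 CPM in KO and 158, 307 and 258 CPM in WT (log2 fold change -2.41 ± 0.341 (SE), adjusted p = 0.00144). KO 4 was the lowest library and WT 1 the lowest of the WT, still more than 2.5 times above KO 2. AA467197 was at 9.66, 8.15, 5.82 and 4.74 CPM in KO and 35.4, 55.5 and 27.6 CPM in WT (log2 fold change -2.52 ± 0.318 (SE), adjusted p = 0.000754). Ifitm6, of the interferon-induced transmembrane family (-1.93 ± 0.315 on the log2 scale, adjusted p = 0.00462), and Adpgk, an ADP-dependent glucokinase (-1.03 ± 0.246, adjusted p = 0.0495), were the other falls. The rise was in Stfa1, a stefin that inhibits cysteine proteases, at 5.95, 12.9, 6.69 and 9.47 CPM in KO and 0.937, 1.44 and 0 CPM in WT (log2 fold change 3.46 ± 0.603 (SE), adjusted p = 0.00764). Stfa1 has near-identical copies, so its counts are uncertain, and 2 of its relatives, Stfa3 and Stfa2l1, had values of 2.23 ± 0.723 and 0.93 ± 0.719 (adjusted p = 0.139 and 0.498). Leaving out 1 library ended the call for Ltf without KO 1, KO 3, WT 2 or WT 3 (adjusted p 0.0652 to 0.211) and Ifitm6 without WT 2 (adjusted p = 0.0508). The call was lost for Adpgk without KO 1, KO 2, KO 3, WT 1, WT 2 or WT 3 (adjusted p 0.0549 to 0.29) and Stfa1 without WT 3 (adjusted p = 0.0526).

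The most abundant members of that list did not pass the threshold, although most of them were separated by genotype. S100a8, a calcium-binding subunit of calprotectin, was at 41618, 62993, 52426 and 31145 CPM in KO and 86902, 110539 and 91440.2 CPM in WT (log2 fold change -1.03 ± 0.276 (SE), adjusted p = 0.081). Ngp, neutrophilic granule protein, was at 10712, 15724, 13315 and 9208 CPM in KO and 22374, 27689 and 23675 CPM in WT (log2 fold change -1.01 ± 0.249 (SE), adjusted p = 0.0592). In both, every KO library was below every WT library and KO 4 was the lowest. S100a9, the partner of S100a8, had -0.70 ± 0.248 (adjusted p = 0.169), and Camp, the cathelicidin precursor, overlapped between groups at -0.54 ± 0.317 (adjusted p = 0.368). Mmp8 and Retnlg, genes of later neutrophil stages, had -0.34 ± 0.4000 and -1.01 ± 0.364 (adjusted p = 0.666 and 0.179), and both overlapped.

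The primary granule list was closer to the background in its median. Of 22 tested, 2 fell (9.09%, against 1% of all genes) and 0 rose. The median was -0.16, which came to -0.02 without KO 4. The 2 falls, Serpinb1a and Hk3, encode a protease inhibitor and a hexokinase and not granule contents. The granule contents Mpo, Elane, Prtn3 and Ctsg were not called. Serpinb1a, which inhibits elastase, proteinase 3 and cathepsin G, was at 282, 331, 264 and 183 CPM in KO and 877, 877 and 725 CPM in WT (log2 fold change -1.64 ± 0.231 (SE), adjusted p = 0.00144). The highest KO library reached less than 50% of the lowest WT library. Hk3, the hexokinase of myeloid cells, was at 23, 21.4, 20.1 and 13.9 CPM in KO and 33.3, 51.7 and 63.3 CPM in WT (log2 fold change -1.34 ± 0.269 (SE), adjusted p = 0.0216). The proteases that Serpinb1a inhibits had values of -0.36 ± 0.311 for Elane, -0.22 ± 0.329 for Prtn3 and -0.07 ± 0.274 for Ctsg (adjusted p = 0.543, 0.734 and 0.92). Each of the 3 was lowest in KO 4 and overlapped between groups. Elane ran from 1786 CPM in KO 4 to 6477 CPM in WT 3. In leave-one-out fits the threshold was missed by Hk3 without KO 3, WT 2 or WT 3 (adjusted p 0.0575 to 0.166).

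Receptors and kinases of mature myeloid cells also included falls. Among 23 neutrophil receptor and oxidase genes, 2 fell (8.7%, against 1% of all genes) and 0 rose. Of the 23, 20 were negative and the median was -0.38. C5ar1, the receptor for complement C5a, was at 9.66, 5.62, 4.65 and 5.75 CPM in KO and 16.9, 20.4 and 15.1 CPM in WT (log2 fold change -1.51 ± 0.313 (SE), adjusted p = 0.0261). Fpr2, a formyl peptide receptor, was at 26.8, 20, 9.02 and 12.9 CPM in KO and 47.8, 59.2 and 28.6 CPM in WT (log2 fold change -1.45 ± 0.336 (SE), adjusted p = 0.0439). Neither gene overlapped, but the lowest WT library of Fpr2 was close to KO 1. Of the NADPH oxidase subunits, Ncf1 had -0.88 ± 0.252 (adjusted p = 0.101), with no overlap between groups, Ncf4 -0.56 ± 0.236, Cyba -0.31 ± 0.244 and Cybb -0.22 ± 0.282, of which none passed. Csf3r, the receptor for G-CSF, was among the 3 positive members at 0.56 ± 0.257 (adjusted p = 0.263). Trem1, an activating receptor of neutrophils and monocytes, was at 8.92, 14.6, 9.89 and 10.5 CPM in KO and 33, 32.2 and 33.9 CPM in WT (log2 fold change -1.56 ± 0.253 (SE), adjusted p = 0.00462). Its WT libraries differed by less than 2 CPM. Adjusted p passed 0.05 for C5ar1 without KO 2, KO 3, WT 1, WT 2 or WT 3 (adjusted p 0.0509 to 0.205) and Fpr2 without KO 2, KO 3, WT 1, WT 2 or WT 3 (adjusted p 0.063 to 0.285).

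In the list of tyrosine kinases and small GTPase regulators, 3 of 28 tested genes fell (10.7%, against 1% of all genes) and 0 rose. The median was -0.25 and came to -0.14 without KO 4. Fgr, a Src family kinase of myeloid cells, was at 16.4, 13.8, 14 and 6.76 CPM in KO and 28.3, 43.1 and 35.2 CPM in WT (log2 fold change -1.50 ± 0.293 (SE), adjusted p = 0.0178). No KO library of Fgr overlapped a WT library. Rasl11b, a Ras-like small GTPase, was at 2.23, 0.844, 3.2 and 0.676 CPM in KO and 19.9, 32.5 and 31 CPM in WT (log2 fold change -4.01 ± 0.421 (SE), adjusted p = 0.000136). Its KO values rest on 19 counts over 4 libraries, against 315 in WT, so the size of the fold is poorly determined. Among further small GTPases, Rhoj was at 8.92, 8.15, 11.3 and 8.12 CPM in KO and 37.5, 21.8 and 31.5 CPM in WT (log2 fold change -1.72 ± 0.277 (SE), adjusted p = 0.00452) and Rnd1 at 7.43, 5.34, 3.2 and 1.69 CPM in KO and 24.6, 29.3 and 30.5 CPM in WT (log2 fold change -2.77 ± 0.359 (SE), adjusted p = 0.000912). Both remained below 12 CPM in every KO library. A fit with 1 library left out did not call Fgr without WT 2 or WT 3 (adjusted p 0.104 to 0.155).

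Monocyte and macrophage genes had 2 falls (7.41%, against 1% of all genes) and 0 rises among 27 tested. They held 20 negative members and had a median of -0.47. Ly6c2, a surface antigen of inflammatory monocytes and their precursors, was at 635, 616, 651 and 601 CPM in KO and 1312, 1196 and 1287 CPM in WT (log2 fold change -1.02 ± 0.198 (SE), adjusted p = 0.0178). The KO libraries lay within 51 CPM of each other and all below 660 CPM, and all WT libraries were above 1190. Fn1, fibronectin, was at 4.46, 1.41, 0.582 and 1.69 CPM in KO and 15, 11.2 and 11.9 CPM in WT (log2 fold change -2.89 ± 0.466 (SE), adjusted p = 0.00452), with 18 counts over the KO libraries and 148 over the WT libraries. Klf4, a transcription factor of monocytes, was at 23.8, 23.1, 27.3 and 18.9 CPM in KO and 67.4, 44.3 and 33.1 CPM in WT, with no overlap (log2 fold change -1.05 ± 0.265 (SE), adjusted p = 0.0631). Csf1r, the receptor of macrophage colony-stimulating factor, and F13a1 had -0.16 ± 0.237 and -0.02 ± 0.288 (adjusted p = 0.732 and 0.978). The 6 monocyte markers summed to between 243 and 486 CPM in the KO and between 304 and 456 CPM in the WT and overlapped. Of 9 MHC class II and dendritic cell genes, 1 fell, the invariant chain gene Cd74, at 0, 3.37, 2.91 and 1.01 CPM in KO and 7.03, 12.4 and 10.9 CPM in WT (log2 fold change -2.23 ± 0.504 (SE), adjusted p = 0.0393), and the median was -0.56. Calls also ended for Ly6c2 without KO 2, KO 3, WT 2 or WT 3 (adjusted p 0.0597 to 0.109) and Cd74 without KO 1, KO 3, WT 2 or WT 3 (adjusted p 0.0575 to 0.235).

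Among adhesion and extracellular matrix genes, 5 of 35 fell (14.3%, against 1% of all genes) and 0 rose. The median was -0.34, and -0.22 without KO 4. Actn1, the actin cross-linker alpha-actinin-1, was at 105, 90.3, 104 and 103 CPM in KO and 237, 278 and 245 CPM in WT (log2 fold change -1.33 ± 0.1997 (SE), adjusted p = 0.00257). The KO libraries spanned 90.3 to 104.8 CPM and the WT libraries 237.4 to 277.6. Cdh1, E-cadherin, was at 2.23, 3.09, 3.78 and 0.338 CPM in KO and 20.4, 17.8 and 33.4 CPM in WT (log2 fold change -3.27 ± 0.442 (SE), adjusted p = 0.00126). Crispld2, a secreted protein, was at 6.69, 9.84, 8.44 and 6.09 CPM in KO and 39.6, 81 and 54 CPM in WT (log2 fold change -2.87 ± 0.295 (SE), adjusted p = 0.000136), and the remaining members were Fn1 and Cnn3, an actin-binding calponin that had 5 counts over the KO libraries and 69 over the WT libraries (log2 fold change -3.62 ± 0.629 (SE), adjusted p = 0.00742). Integrin and tetraspanin members varied: Itgb2 had -0.46 ± 0.218, Itga4 0.65 ± 0.305 and Cd63 -0.68 ± 0.301, and none passed. With 1 library fewer the call ended for Cnn3 without WT 3 (adjusted p = 0.0819).

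Promoter sequence was examined for the called genes, since many fell together and since granule genes are known targets of C/EBP factors and PU.1. RefSeq promoter windows (build GRCm38.p6, matched by symbol and not by the coordinates of the study, which used mm9) were at hand for 7751 of 9969 tested genes, 75 of the 100 falls and 32 of the 45 rises. In the 250 bases before the start, on either strand, the C/EBP motif TTGCNNAA was found in 10.7% of the falls and 12.5% of the rises, against 9.04% of all tested genes. The PU.1 motif GAGGAAGT was found in 2.67%, 6.25% and 3.11%, and a CTCF core motif in 16%, 15.6% and 12.7%. None of these shares was far from the background. The 3 windows below are of falls that were called in every setting and hold a C/EBP match (capitals); Actn1 on the minus strand at chr12:80260364-80260613, Slpi on the minus strand at chr2:164356508-164356757 and Syngr1 on the plus strand at chr15:80091084-80091333, each written 5′ to 3′ in the direction of the gene.
Actn1: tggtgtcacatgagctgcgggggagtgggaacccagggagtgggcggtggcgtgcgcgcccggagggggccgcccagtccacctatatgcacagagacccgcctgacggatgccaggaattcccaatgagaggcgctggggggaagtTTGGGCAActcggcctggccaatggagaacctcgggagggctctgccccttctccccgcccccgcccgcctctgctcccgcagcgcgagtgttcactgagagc
Slpi: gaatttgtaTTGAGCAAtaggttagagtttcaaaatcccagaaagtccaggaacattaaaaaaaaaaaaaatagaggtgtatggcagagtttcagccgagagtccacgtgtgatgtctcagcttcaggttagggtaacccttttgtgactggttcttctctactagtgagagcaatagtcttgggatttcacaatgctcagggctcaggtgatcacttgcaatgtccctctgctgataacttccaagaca
Syngr1: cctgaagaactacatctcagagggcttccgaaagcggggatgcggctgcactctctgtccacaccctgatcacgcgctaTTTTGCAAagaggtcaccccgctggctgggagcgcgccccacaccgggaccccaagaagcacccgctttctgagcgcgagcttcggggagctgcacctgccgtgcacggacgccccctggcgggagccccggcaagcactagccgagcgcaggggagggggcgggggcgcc
Capitals lie 103, 241 and 171 bases before the start. A match describes the letters only. Syngr1, a membrane protein of synaptic-like vesicles, was at 5.2, 8.72, 4.65 and 2.03 CPM in KO and 23.2, 31.9 and 47.4 CPM in WT (log2 fold change -2.70 ± 0.38 (SE), adjusted p = 0.00144), with all KO libraries below all WT libraries.

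Of 31 lipid mediator and redox genes tested, 1 fell (3.23%, against 1% of all genes) and 0 rose (median -0.17). Gpx3, the secreted glutathione peroxidase, was at 4.46, 3.09, 4.07 and 2.37 CPM in KO and 20.6, 22.7 and 30.7 CPM in WT (log2 fold change -2.85 ± 0.32 (SE), adjusted p = 0.000276). Falls outside the lists, picked with their values known, included Mgll, monoacylglycerol lipase, which was at 11.9, 13.5, 14.8 and 12.9 CPM in KO and 40, 52 and 58.3 CPM in WT (log2 fold change -1.90 ± 0.239 (SE), adjusted p = 0.000754), and Mogat2, which acylates monoacylglycerol, at 12.6, 20, 18.9 and 10.1 CPM in KO and 43.3, 55.2 and 69.9 CPM in WT (log2 fold change -1.84 ± 0.276 (SE), adjusted p = 0.00259). In these 2 genes and in Gpx3 the KO and WT libraries were separate. Bcl2l1, the gene of the anti-apoptotic protein Bcl-xL, was at 19.3, 13.5, 14.5 and 10.1 CPM in KO and 41.2, 58.6 and 50.3 CPM in WT (log2 fold change -1.83 ± 0.258 (SE), adjusted p = 0.00144). St3gal5, which makes the ganglioside GM3, was at 13.4, 28.7, 13.4 and 16.9 CPM in KO and 57.6, 93.4 and 50.1 CPM in WT (log2 fold change -1.86 ± 0.302 (SE), adjusted p = 0.00462). Its lowest WT library, WT 3, was 1.7 times its highest KO library, KO 2. S100a6, a calcium-binding protein, was at 204, 204, 135 and 66 CPM in KO and 364, 639.9 and 408 CPM in WT (log2 fold change -1.63 ± 0.328 (SE), adjusted p = 0.0218), and its KO values were lowest in KO 4. Il1rn and Il1r2, the antagonist and the decoy receptor of interleukin-1, were the 2 falls among 17 NF-kB and inflammation genes, at -1.93 ± 0.432 and -1.31 ± 0.307 (adjusted p = 0.0389 and 0.0457), and the list's median was -0.03. The call did not hold for S100a6 without KO 3, WT 2 or WT 3 (adjusted p 0.0575 to 0.194) and Il1rn without KO 2, KO 3, WT 1, WT 2 or WT 3 (adjusted p 0.0602 to 0.272). Leaving out 1 library ended the call for Il1r2 without KO 2, KO 3, WT 1, WT 2 or WT 3 (adjusted p 0.0645 to 0.29).

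Rises were fewer and less stable. Snord13 was at 255, 456, 358 and 359 CPM in KO and 103, 99.99 and 125 CPM in WT (log2 fold change 1.71 ± 0.242 (SE), adjusted p = 0.00144), each KO library at more than 2 times each WT library. Snord118, which guides ribosomal RNA processing, rose as well, at 32, 40.8, 34.9 and 25.4 CPM in KO and 17.1, 11.5 and 15.9 CPM in WT (log2 fold change 1.16 ± 0.263 (SE), adjusted p = 0.0393). Of 20 small nucleolar and Cajal body RNAs tested, a group taken after its values were seen, 2 rose, 0 fell and 18 were positive, with a median of 0.52. Snord13 is itself part of the small nucleolar RNA share given above, which was separated by genotype. Cited2, a transcriptional coregulator that binds p300, was at 379, 338, 356 and 401 CPM in KO and 196, 183 and 190.5 CPM in WT (log2 fold change 0.96 ± 0.203 (SE), adjusted p = 0.0307). Serpine2, a serine protease inhibitor, was at 219, 254, 277 and 283 CPM in KO and 134, 117 and 112 CPM in WT (log2 fold change 1.09 ± 0.211 (SE), adjusted p = 0.0171). In both, no KO library overlapped a WT library. Dnajc6, the auxilin of clathrin uncoating, was at 14.1, 14.1, 15.1 and 15.2 CPM in KO and 4.45, 4.31 and 3.97 CPM in WT (log2 fold change 1.78 ± 0.305 (SE), adjusted p = 0.00672). Its KO libraries lay within 2 CPM of each other. The call was lost for Snord118 without KO 1, KO 2, KO 3, WT 1, WT 2 or WT 3 (adjusted p 0.0549 to 0.277) and Cited2 without KO 1, KO 2, KO 3, WT 1, WT 2 or WT 3 (adjusted p 0.0527 to 0.235). In leave-one-out fits the threshold was missed by Serpine2 without KO 3, WT 2 or WT 3 (adjusted p 0.0609 to 0.178) and Dnajc6 without WT 2 or WT 3 (adjusted p 0.0526 to 0.053).

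The lymphoid and plasmacytoid list held 3 rises among 15 tested genes (20%, against 0.451% of all genes) and 1 fall, Cnn3, with a median of 0.29. Since its members were chosen with earlier results of these data known, this share is no test of a lymphoid change. Ikzf2, the transcription factor Helios, was at 13.4, 14.1, 17.5 and 30.1 CPM in KO and 7.03, 7.47 and 7.15 CPM in WT (log2 fold change 1.39 ± 0.331 (SE), adjusted p = 0.049). Tcf7l2, a Wnt-responsive transcription factor, was at 4.46, 12.7, 7.56 and 16.9 CPM in KO and 1.87, 3.45 and 0.795 CPM in WT (log2 fold change 2.396 ± 0.518 (SE), adjusted p = 0.0348), and P2ry10, a lysophospholipid receptor, at 3.72, 8.15, 12.5 and 11.5 CPM in KO and 3.28, 0.287 and 0.795 CPM in WT (log2 fold change 2.59 ± 0.585 (SE), adjusted p = 0.0393). None overlapped, but P2ry10 in KO 1 was only just above WT 1. Tcf4, the E protein of plasmacytoid dendritic cells, was at 98.1, 112, 106 and 245 CPM in KO and 56.2, 37.6 and 36 CPM in WT (log2 fold change 1.70 ± 0.324 (SE), adjusted p = 0.0162), with KO 4 more than 2 times as high as the other KO libraries. The 4 plasmacytoid markers summed to at most 7.24 CPM in the KO and 6.33 CPM in the WT, and the sum of the 5 B cell markers was lower in KO, as given above. Of these 5 markers 1 was tested, and it was not called. The regulators Bcl11a and Satb1 of the same list did not pass and were at 0.88 ± 0.255 and 0.90 ± 0.271 (adjusted p = 0.106 and 0.114), both without overlap. Adjusted p passed 0.05 for Ikzf2 without KO 1, KO 3, KO 4, WT 1, WT 2 or WT 3 (adjusted p 0.0529 to 0.235) and Tcf7l2 without KO 2, WT 1, WT 2 or WT 3 (adjusted p 0.0518 to 0.215). A fit with 1 library left out did not call P2ry10 without KO 2, KO 3, WT 2 or WT 3 (adjusted p 0.0527 to 0.258) and Tcf4 without WT 2 or WT 3 (adjusted p 0.144 to 0.171).

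Other rises were spread over several lists. Msi2, which binds RNA and is known from stem cells, was at 31.2, 40.5, 43.9 and 99.1 CPM in KO and 22.5, 18.1 and 18.3 CPM in WT (log2 fold change 1.46 ± 0.343 (SE), adjusted p = 0.0457). It was the 1 rise among 21 stem and multipotent progenitor genes (median 0.08), of which 2 fell, the interferon-induced transmembrane genes Ifitm1 and Ifitm3. H2afy2, the histone variant macroH2A2, was at 3.72, 11, 9.6 and 12.5 CPM in KO and 0.703, 2.59 and 3.44 CPM in WT (log2 fold change 2.10 ± 0.502 (SE), adjusted p = 0.0495). It was the 1 rise among 39 histone and chromatin genes, of which 0 fell, 30 were positive and the median was 0.27. That median was 0.18 without KO 4, the library in which Ep300, Setd2 and Smarca2 were highest. Gbp2, an interferon-induced GTPase, was at 5.2, 7.87, 6.98 and 6.09 CPM in KO and 0.703, 1.15 and 2.12 CPM in WT (log2 fold change 2.31 ± 0.474 (SE), adjusted p = 0.0242), while Ifitm3 was the 1 fall among 26 interferon-stimulated genes (log2 fold change -1.36 ± 0.307 (SE), adjusted p = 0.0393), whose median was 0.11. Ear1, an eosinophil ribonuclease with near-identical copies and therefore uncertain counts, was at 33.4, 66.1, 59.3 and 54.1 CPM in KO and 15.7, 8.62 and 29.4 CPM in WT (log2 fold change 1.58 ± 0.349 (SE), adjusted p = 0.0379). The summed eosinophil markers, given above, overlapped between groups. Ear1 was the 1 rise and Ifitm1 the 1 fall among 19 eosinophil, basophil and mast cell genes (median 0.24), and Serpine2 was the 1 rise among 9 megakaryocyte and platelet genes, of which 0 fell (median 0.12). Serpins and stefins, protease inhibitors, moved both ways, with Stfa1 and Serpine2 rising and Slpi and Serpinb1a falling out of 12 (median 0.01). Pde5a, the cGMP phosphodiesterase and a member of none of the lists, was at 11.9, 7.87, 7.27 and 10.5 CPM in KO and 3.51, 0.287 and 1.32 CPM in WT (log2 fold change 2.35 ± 0.529 (SE), adjusted p = 0.0393). Calls also ended for Msi2 without KO 3, WT 1, WT 2 or WT 3 (adjusted p 0.0577 to 0.266) and H2afy2 without KO 2, KO 3, WT 1, WT 2 or WT 3 (adjusted p 0.0807 to 0.224). With 1 library fewer the call ended for Gbp2 without KO 2, KO 3, WT 1, WT 2 or WT 3 (adjusted p 0.0527 to 0.183) and Ear1 without KO 2, KO 3, WT 1 or WT 2 (adjusted p 0.0673 to 0.23). The call did not hold for Pde5a without KO 1, KO 2, KO 3, WT 2 or WT 3 (adjusted p 0.0527 to 0.243) and Ifitm3 without KO 1, KO 2, KO 3, WT 2 or WT 3 (adjusted p 0.0595 to 0.254).

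Lists of general cell functions held few calls. With 1.45% of all tested genes called, lists of this size would hold about as few, so these counts are no result about the lists. Of 43 S phase genes 0 were called (median -0.10), and of 46 G2/M genes 1 fell, Cenpv, a centromere protein with 16 counts over the KO libraries and 126 over the WT libraries (log2 fold change -2.93 ± 0.559 (SE), adjusted p = 0.0162), with a median of 0.01. Of 71 cytosolic ribosomal proteins 0 were called (median -0.09), of 40 Myc and ribosome biogenesis genes 0 (median -0.17), and of 20 erythroid genes 0 (median -0.04). Cohesin and its regulators had 0 calls among 15 genes and a median of 0.24, with 12 positive. In immediate early and heat shock genes 0 of 30 were called, yet 25 were negative and the median was -0.44. Of its members, Ier5 had -0.98 ± 0.28 and Hspa5 -0.53 ± 0.237 (adjusted p = 0.103 and 0.254), both with every KO library below every WT library. Of 46 myeloid transcription regulators, 1 rose (Tcf4) and 1 fell, Mxd1, an antagonist of Myc, at 40.9, 35.7, 28.2 and 14.9 CPM in KO and 52.2, 92.8 and 75.5 CPM in WT (log2 fold change -1.32 ± 0.302 (SE), adjusted p = 0.0419), and the median was 0.06. Cebpa, a master regulator of granulocyte fate, was at 519, 383, 451 and 126 CPM in KO and 470.4, 636 and 937 CPM in WT (log2 fold change -0.88 ± 0.361 (SE), adjusted p = 0.222), lowest in KO 4. Its overlap with WT came from KO 1 alone. Leaving out 1 library ended the call for Cenpv without WT 3 (adjusted p = 0.175) and Mxd1 without KO 1, KO 2, KO 3, WT 2 or WT 3 (adjusted p 0.0515 to 0.277).

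**Figure D4:**
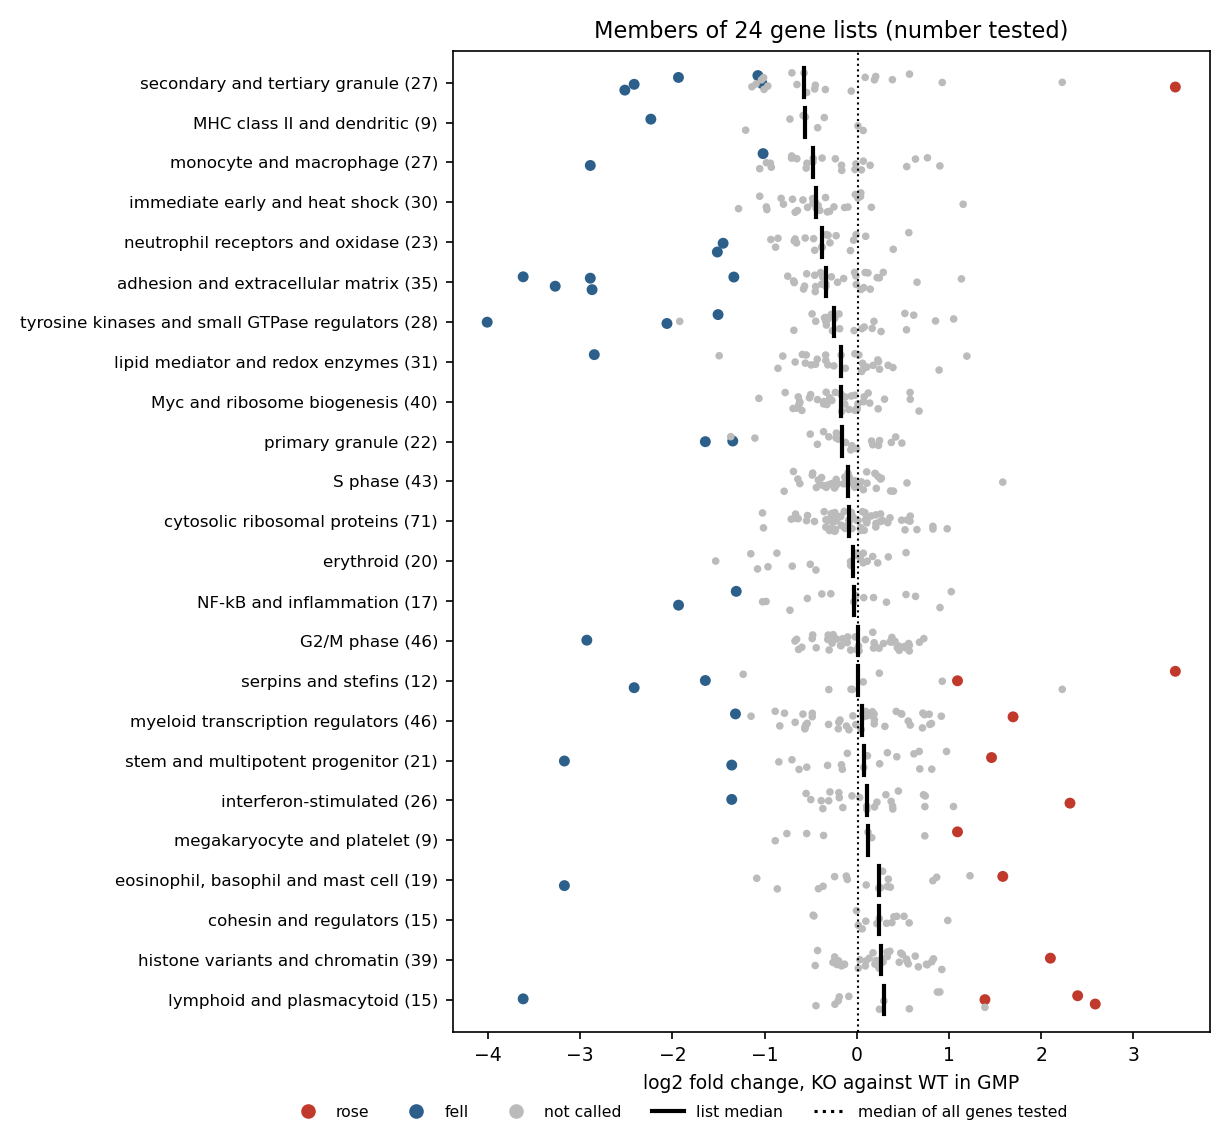
Each point is a tested member of 1 of 24 gene lists, at its log2 fold change of KO against WT in GMP (x), red where it rose and blue where it fell; black bars are list medians and the dotted line is the median of all genes. The secondary and tertiary granule list has the lowest median (-0.57) and the lymphoid and plasmacytoid list the highest (0.29).

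The KO effect in GMP was set beside that in CFU-E, which were sequenced with the same kind of library. The difference of the 2 effects was tested as an interaction over 14 libraries with a flow cell term. Of 11006 genes, 37 had a lower effect in GMP (0.336%) and 12 a higher one (0.109%), 0.445% in all. Of the 100 falls in GMP, 51 were tested in CFU-E, and 25 were negative there, 4 of them called (Aplp2, Cenpv, Cnn3 and Ly6e), beside 1.06% of the 10170 genes tested in CFU-E. Over all genes tested in both, 49.1% were negative in CFU-E. The difference itself was called for 18 of the 51, against 2 of the 25 rises tested, Ikzf2 and Ssh1. These genes were selected for passing in the same GMP libraries that enter the interaction. That selection favours called differences in the direction of the GMP change, so these counts are no independent result. Actn1 had the smallest p: in CFU-E it was at 17.1, 17.6, 12.8 and 8.51 CPM in KO and 3.53, 5.25 and 2.71 CPM in WT and rose (log2 fold change 2.07 ± 0.359, adjusted p = 0.0109), and the difference between the populations was -3.48 ± 0.351 (SE), adjusted p = 2.95e-05. The direction was thus opposite, at a level that stayed below 18 CPM in every CFU-E library. Slpi in CFU-E was at 9.38, 14.2, 3.51 and 5.05 CPM in KO and 1.41, 4.09 and 1.35 CPM in WT, and the difference was -4.46 ± 0.717 (SE), adjusted p = 0.00352. Rhoj in CFU-E was at 3.67, 8.22, 6.6 and 3.19 CPM in KO and 0.236, 1.17 and 0 CPM in WT, and the difference was -4.95 ± 0.734 (SE), adjusted p = 0.00206. For both genes the CFU-E levels were within 15 CPM, so the size of these differences is poorly determined. Syngr1, below 50 CPM in every GMP library, was at 98.9, 149, 85.2 and 69.7 CPM in KO and 89.1, 106 and 111 CPM in WT in CFU-E, where the groups overlapped, and the difference was -2.71 ± 0.49 (SE), adjusted p = 0.0113. St3gal5 was at 462, 429, 472 and 409 CPM in KO and 327, 346 and 404 CPM in WT in CFU-E, higher in each KO than in each WT library, and the difference was -2.20 ± 0.368 (SE), adjusted p = 0.00507. Bzrap1, Serpinb1a and S100a6, all under 13 CPM in CFU-E, had differences of -3.08 ± 0.51 (SE), adjusted p = 0.00484, of -2.06 ± 0.407 (SE), adjusted p = 0.0207, and of -2.94 ± 0.591 (SE), adjusted p = 0.0247.

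Aplp2, a relative of the amyloid precursor protein, fell in both populations. In GMP it was at 11.1, 11.8, 14.5 and 13.9 CPM in KO and 35.4, 31.6 and 40 CPM in WT (log2 fold change -1.46 ± 0.24 (SE), adjusted p = 0.00517), and in CFU-E at 139, 169.8, 150.4 and 143 CPM in KO and 342, 383 and 419 CPM in WT (log2 fold change -1.42 ± 0.136, adjusted p = 8.32e-05). Among rises, Pde5a rose in CFU-E too, at 1.69 ± 0.367 (adjusted p = 0.0425), as did Eps8l1, at 3.84 ± 0.751 (adjusted p = 0.0244). Ikzf2 had a negative value in CFU-E that did not pass, -1.30 ± 0.449 (adjusted p = 0.272), with a difference of 2.59 ± 0.534 (SE), adjusted p = 0.0285. The interaction calls rested on few CFU-E libraries. All GMP libraries shared a flow cell with CFU-E KO 1, WT 1 and WT 2, and the other CFU-E libraries were on another. Nearly all interaction calls ended within the shared flow cell, or without CFU-E WT 3. In both fits the CFU-E effect rests on KO 1 against WT 1 and WT 2. They are therefore the same contrast, with 1 KO library, and cannot show a dependence on the flow cell.

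**Figure D5:**
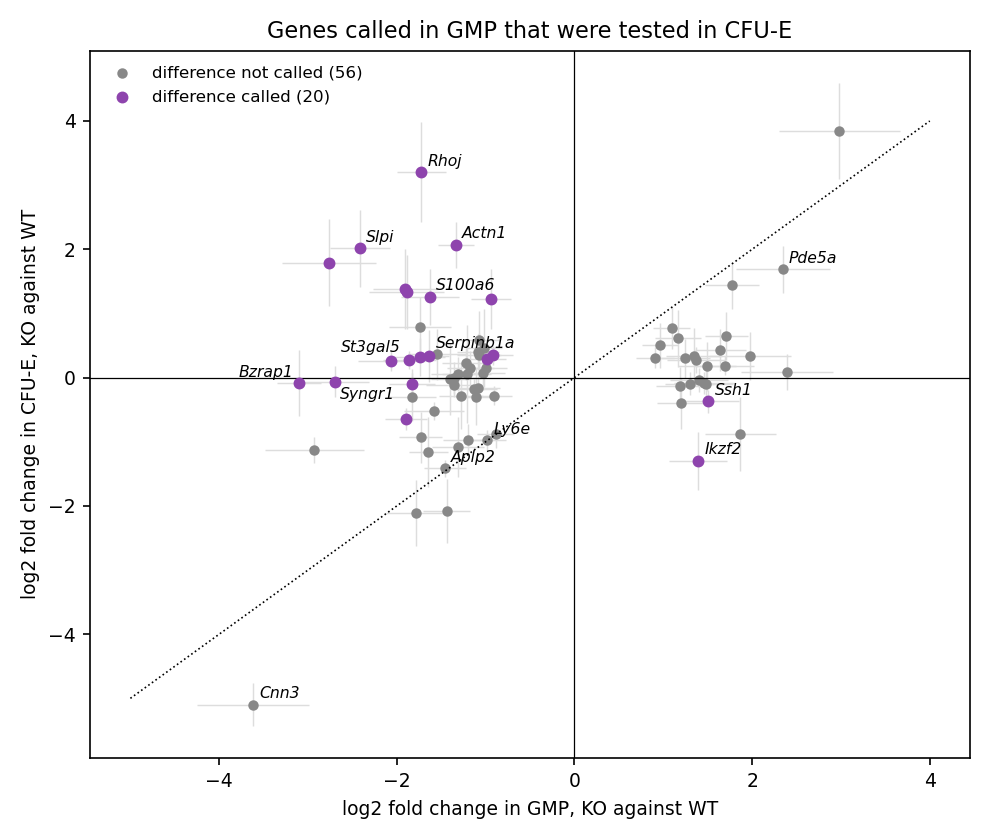
The 76 genes called in GMP that were also tested in CFU-E, with the log2 fold change in GMP (x) and in CFU-E (y), SE as grey bars and equality as the dotted line. Purple marks the 20 genes whose 2 effects differed by the interaction test. Most of them fell in GMP and lie at or above 0 in CFU-E. Aplp2 and Ly6e lie near the line and Cnn3 is lower in CFU-E than in GMP. All genes shown were selected by their GMP values, which favours points away from the line.

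In LSK cells, made with another kit and shown only side by side, 94 of the 100 falls had a negative log2 fold change (median -0.87), against 41.6% of the 9791 genes tested in both populations. Of the 43 rises tested there 31 were positive, against 58.4% of all genes, and the median was 0.33. Few single genes passed in LSK, 4 of these falls (Bzrap1, Cbara1, Cnn3 and Gm2a) and 1 of the rises (D18Ertd653e), where 14 of 17664 genes were called in all (0.0793%). Bzrap1 in LSK was at 11.1, 16.4 and 7.91 CPM in KO and 41.8, 48.8, 42.4 and 54.8 CPM in WT (log2 fold change -1.99 ± 0.25, adjusted p = 0.0397), again with no overlap. Serpinb1a was at 277, 261 and 218 CPM in KO and 373, 619, 408 and 614 CPM in WT, also separated (-0.999 ± 0.216, adjusted p = 0.205). Cited2, which rose in GMP, was negative in LSK at -0.46 ± 0.238 (adjusted p = 0.736), and Snord13 was at most 1.64 CPM in any LSK library.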

How the data were processed

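The authors deposited raw read counts, as whole numbers, for 30733 genes in 21 libraries. STAR 2.4, HTSeq 0.6.1, DESeq2 and build mm9 are named in the submitters' processing notes. Neither the annotation nor whether counting used strand is stated in the sources used here, which leaves overlapping genes, antisense genes and near-identical family members uncertain. Groups were taken from the sample titles. No library pair of a group agreed within sampling noise, with a smallest chi-square of 4.03 for each degree of freedom. Counts of the 7 GMP libraries were filtered with filterByExpr (minimum count 10, minimum total 15), scaled with TMM and tested with edgeR 4.0.16 in R 4.3.3 (quasi-likelihood F test, Benjamini-Hochberg adjusted p under 0.05). The SE was taken as the size of the log2 fold change over the root of F. The replicate block was not used in the main test, since libraries with the same number did not deviate together in each pair (r = -0.16, 0.17 and 0.25). The difference between GMP and CFU-E was an interaction term with the flow cell as a covariate. Results are described over 24 gene lists (850 different genes, 832 in the table). The members and lists were chosen with earlier results of these data known. Genes were named by this rule: Stag2 and Stag1, the 12 largest rises and falls that average 5 CPM or more with separate groups (symbols of Gm or Rik type counted only), the 10 most abundant called genes, called list members, the 3 most abundant members of each list, the 5 smallest p of the interaction per direction and the cell type markers. A gene in the text outside this rule was chosen after its values were seen: besides those said so, these are Dmxl2, Eps8l1, Cbara1, Gm2a, D18Ertd653e, Snord118 and list members that were not called. A few genes picked in this way are left out of the text. The tests were tried on simulated counts first. Alternatives were DESeq2 1.42.0, its size factors, library totals, limma 3.58.1 (voom with quality weights), other filters, thinned counts, the replicate block, a joint fit with CFU-E and leaving out each library.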

Additional observations from a re-analysis of the deposited data

Results flagged for a closer look

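Among the 4 KO libraries, 1 library stood far from the other 3 for 8 of the 100 genes named above, by Dixon's criterion at the 95% level, which chance meets in about 1 of 20 groups. In 6 of the 8 genes that library was KO 4. KO 4 was low in Cyba (605.8 CPM) and high in Cybb (1128 CPM), F13a1 (379 CPM), Malat1 (6929 CPM), Setd2 (273 CPM) and Tcf4 (245 CPM). Tcf4 is the called gene of these 6, and without KO 4 its libraries were still separate. Actn1 was low in KO 2 (90.3 CPM), a gap of 13 CPM or less that is small beside the WT level, and Ankrd57 was high in KO 1 (5.95 CPM).

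For 15 named genes the KO effect differed between GMP and CFU-E by the interaction test. As differences of log2 fold change, GMP minus CFU-E, they were -4.95 for Rhoj, -4.46 for Slpi, -3.48 for Actn1, -3.08 for Bzrap1, -2.94 for S100a6 and -2.71 for Syngr1. Gpc1 followed at -2.66, Ngp at -2.29, St3gal5 at -2.20, Serpinb1a at -2.06, Bcl2l1 at -1.81, Ier5 at -1.67 and Mgll at -1.33. Ikzf2 (2.59) and Ssh1 (1.79) had the higher effect in GMP. Ngp and Ier5 were not called within GMP alone, and Gpc1 was too low in CFU-E to be tested there alone. Actn1 alone of the 15 kept the call in all 19 alternatives, and every other one lost it without CFU-E WT 3. The call ended in 14 alternatives for Mgll, in 12 for Ssh1 and in 11 for Ier5. For Rhoj the difference ran from -9.18 to -3.97 over the alternatives.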

How the results depend on the processing

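Against 45 rises and 100 falls in GMP, DESeq2 called 132 and 168, limma-voom 617 and 647, no filter 315 and 286, and at least 10 CPM in 3 libraries 25 and 58. Library totals gave 74 and 60, thinned counts 16 and 50, and leaving out KO libraries under 2000000 counts, which is KO 1, 27 rises. The joint fit of 14 libraries called 136 and 179. With the replicate block 136 rose and 189 fell, and all 145 genes were among them; the numbers are not known to mark shared animals. Leaving out 1 library gave 2 to 68 rises and 36 to 143 falls. A fit that left out both KO 1 and KO 4, added after the data were seen, gave 32 and 78. For the difference from CFU-E, 12 higher and 37 lower in GMP, DESeq2 gave 38 and 96 and no filter 101 and 153. Flow cell A alone, with 1 CFU-E KO library, ended nearly all calls. Leaving out 1 library gave 1 to 18 higher and 1 to 54 lower. The cause of these changes was not tested. The filtered, thinned and reduced sets also held fewer genes, counts or libraries. No called gene named above changed sign, which selection in the same libraries favours. List medians kept their sign in all 18 alternatives for the secondary granule, neutrophil receptor, monocyte, MHC class II, adhesion, kinase, immediate early, cohesin, lymphoid and histone lists. The depth of KO 1 limits weakly expressed genes.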
